A study of Mus musculus with 4 samples.

Results

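The calcium cycling genes of cardiomyocytes described here are 10 of the 33954 genes in the deposited matrices, chosen by symbol: Ryr2, Atp2a2, Pln, Casq2, Cacna1c, Slc8a1, Trdn, Jph2, Camk2d and Cacna2d1. They were measured by single-nucleus RNA sequencing of mouse heart in 4 libraries, with 1 library in each group. The groups were wild-type hearts (WT) and hearts with a Vegfa allele edited to carry a premature stop, named Q150X, each at homeostasis and 3 days after myocardial infarction (3dpMI). The titles mark the Q150X libraries "ho"; the labels used here give no age, sex or number of hearts in a library. Vegfa encodes the growth factor VEGF-A; the allele was made by CRISPR/Cas9 genome editing, and the labels name no promoter or Cre that would limit it to a cell type. The study asked what the allele does to the uninjured and to the infarcted heart. Below, 4 values given in library order are WT then Q150X at homeostasis, followed by WT then Q150X at 3dpMI.

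With each heartbeat, calcium enters a cardiomyocyte through the L-type channel, whose pore is made by Cacna1c and whose auxiliary alpha2delta subunit is made by Cacna2d1. This entry opens the ryanodine receptor (Ryr2) in the sarcoplasmic reticulum, which releases stored calcium held there by calsequestrin (Casq2) and linked to the receptor by triadin (Trdn), while junctophilin (Jph2) holds the surface and store membranes together. The pump SERCA2 (Atp2a2), restrained by phospholamban (Pln), returns calcium to the store, the exchanger NCX1 (Slc8a1) carries it out of the cell, and the kinase CaMKII delta (Camk2d) modifies several of these proteins.

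Cardiomyocyte nuclei numbered, in library order, 1565 of 4173 kept nuclei, 838 of 6142, 1145 of 8156 and 423 of 7397. Their summed unique molecular identifiers (UMIs, counted RNA molecules) came to 3102190, 2998093, 7621837 and 3348000, with medians per nucleus of 1515, 3031, 6111 and 7308. The class rests on 14 markers, none of them a calcium cycling member, all detected in each library and summing to between 51428 and 70380 CPM (UMIs of a gene scaled to a class total of 1000000). Summed markers of fibroblasts in these nuclei went from 88.3 and 181 CPM at homeostasis (WT, Q150X) to 506 and 706 CPM at 3dpMI, and those of macrophages from at most 67.4 CPM to 121 and 211 CPM. Between 39 and 117 cell barcodes were shared by any pair of libraries, at most 1.44% of either. With 1 library per group no test was possible and no p-value is given. Every interval below is at 95% and covers counting error only. It leaves out the difference between hearts and any spread between nuclei beyond counting, so intervals that do not overlap are no test. Vegfa itself stood at 714, 925, 595 and 690 CPM in cardiomyocytes in library order; a gene count does not read the allele, so it does not check the label.

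Promoter sequence was found for 8 of the 10 members in RefSeq (build GRCm38.p6), and 3 are shown because their genes carry the contrasts described below: Jph2 and Slc8a1, whose levels moved in opposite directions with infarction, and Pln, the partner of Atp2a2. Each is the 250 bases before the start of transcription on the gene's strand. Capitals mark matches on either strand to TATAAA (the sequence of the TATA box), to GGGCGG (the GC box), to CATTCC (the core of the M-CAT element), or to the MEF2 or CArG motif.
Pln, plus strand, chr10:53337436-53337685: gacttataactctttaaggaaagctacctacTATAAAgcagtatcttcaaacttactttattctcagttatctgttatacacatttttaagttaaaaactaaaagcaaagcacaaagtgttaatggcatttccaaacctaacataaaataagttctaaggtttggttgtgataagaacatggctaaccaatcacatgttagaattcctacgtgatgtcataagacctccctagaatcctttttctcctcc
Jph2, minus strand, chr2:163397974-163398223: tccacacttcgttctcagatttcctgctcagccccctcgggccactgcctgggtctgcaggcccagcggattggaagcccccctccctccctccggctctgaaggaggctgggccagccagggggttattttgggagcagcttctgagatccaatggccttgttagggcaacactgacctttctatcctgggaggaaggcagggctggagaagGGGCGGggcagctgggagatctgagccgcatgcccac
Slc8a1, minus strand, chr17:81738388-81738637: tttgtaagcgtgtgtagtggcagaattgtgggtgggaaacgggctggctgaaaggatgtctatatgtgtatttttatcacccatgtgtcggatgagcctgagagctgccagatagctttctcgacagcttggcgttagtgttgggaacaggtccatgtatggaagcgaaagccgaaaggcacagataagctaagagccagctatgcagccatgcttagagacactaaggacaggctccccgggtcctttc
The Pln window held 1 TATAAA, near its end farthest from the start of transcription. Whether that match serves as a TATA box was not tested. The Pln window had a G and C content of 32.8%, against 62.8% in the Jph2 window, which held 1 GGGCGG. The Slc8a1 window held none of these motifs. Among 32851 promoter windows of this length, 12.4% held TATAAA, 32.7% GGGCGG, 12.6% CATTCC, 0.508% the MEF2 motif and 1.47% the CArG motif. Of the other members, the Camk2d window held 3 GGGCGG, and the Cacna2d1 window and the middle of 3 Cacna1c windows held 6 each, some of which may overlap. The windows of Ryr2 and Casq2 held none of these motifs.

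Together the members made up 5.48%, 5.28%, 5.38% and 5.36% of cardiomyocyte UMIs in library order. This sum differed little between libraries while single members differed by as much as 2.14-fold (Jph2, WT homeostasis over WT 3dpMI), and Ttn, the titin gene, went from 4.58% and 3.78% at homeostasis to 3.04% and 2.77% at 3dpMI. In summed nuclei, fewer molecules of a gene and more of the others cannot be told apart, since CPM is a share.

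Among the release genes, the channel Ryr2 stood at 20846, 19053, 19345 and 18823 CPM in library order. Its highest level was in WT homeostasis, and the other 3 libraries lay close together. Casq2, the calcium-binding protein of the store, stood at 297, 383, 340 and 289 CPM in the same order, highest in Q150X homeostasis and lowest in Q150X 3dpMI. Trdn, the anchor between them, stood at 1373, 1456, 1487 and 1191 CPM, with the Q150X 3dpMI library below the other 3. D830005E20Rik, annotated antisense to Trdn, stood at 3309, 2942, 1914 and 1306 CPM. No source used here says whether counting kept the strands apart, so reads of Trdn and of this gene cannot be told apart with certainty.

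Both uptake genes were lowest in the Q150X 3dpMI library. Atp2a2, the store's calcium pump, stood at 3201, 3851, 3682 and 1876 CPM in library order. The Q150X infarction library stood apart from the other 3, which lay within 3201 to 3851 CPM. Pln, the pump's inhibitor, stood at 1042, 1144, 980 and 806 CPM, with the same library lowest and a narrower range. In the GENCODE annotation of the build used for promoters, Pln overlaps Cep85l on the opposite strand, which stood at 93.5, 103, 87.9 and 77.4 CPM.

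Among the entry genes, Cacna1c stood at 17619, 14436, 13566 and 13370 CPM in library order, so WT homeostasis was above the rest. Its auxiliary subunit Cacna2d1 stood at 1131, 1210, 1301 and 1580 CPM, highest in Q150X 3dpMI. Slc8a1, the exchanger, stood at 7363, 9346, 11406 and 13688 CPM, each above the one before, with no overlap of the counting intervals between any pair of libraries. The intervals of Atp2a2, Pln, Jph2, Camk2d and Cacna2d1 did not overlap between libraries either. Camk2d and Cacna2d1 rose in the same order, which is also that of median UMIs per cardiomyocyte nucleus (1515, 3031, 6111 and 7308). The part of depth in this order was not tested. Jph2, the junction protein, stood at 1066 and 970 CPM in the homeostasis libraries and at 498 and 621 CPM in the infarction libraries (WT, Q150X), so the pairs of libraries separated by infarction. Camk2d, the kinase, stood at 819 and 945 CPM at homeostasis and at 1229 and 1340 CPM at 3dpMI, the opposite order.

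**Figure D1:**
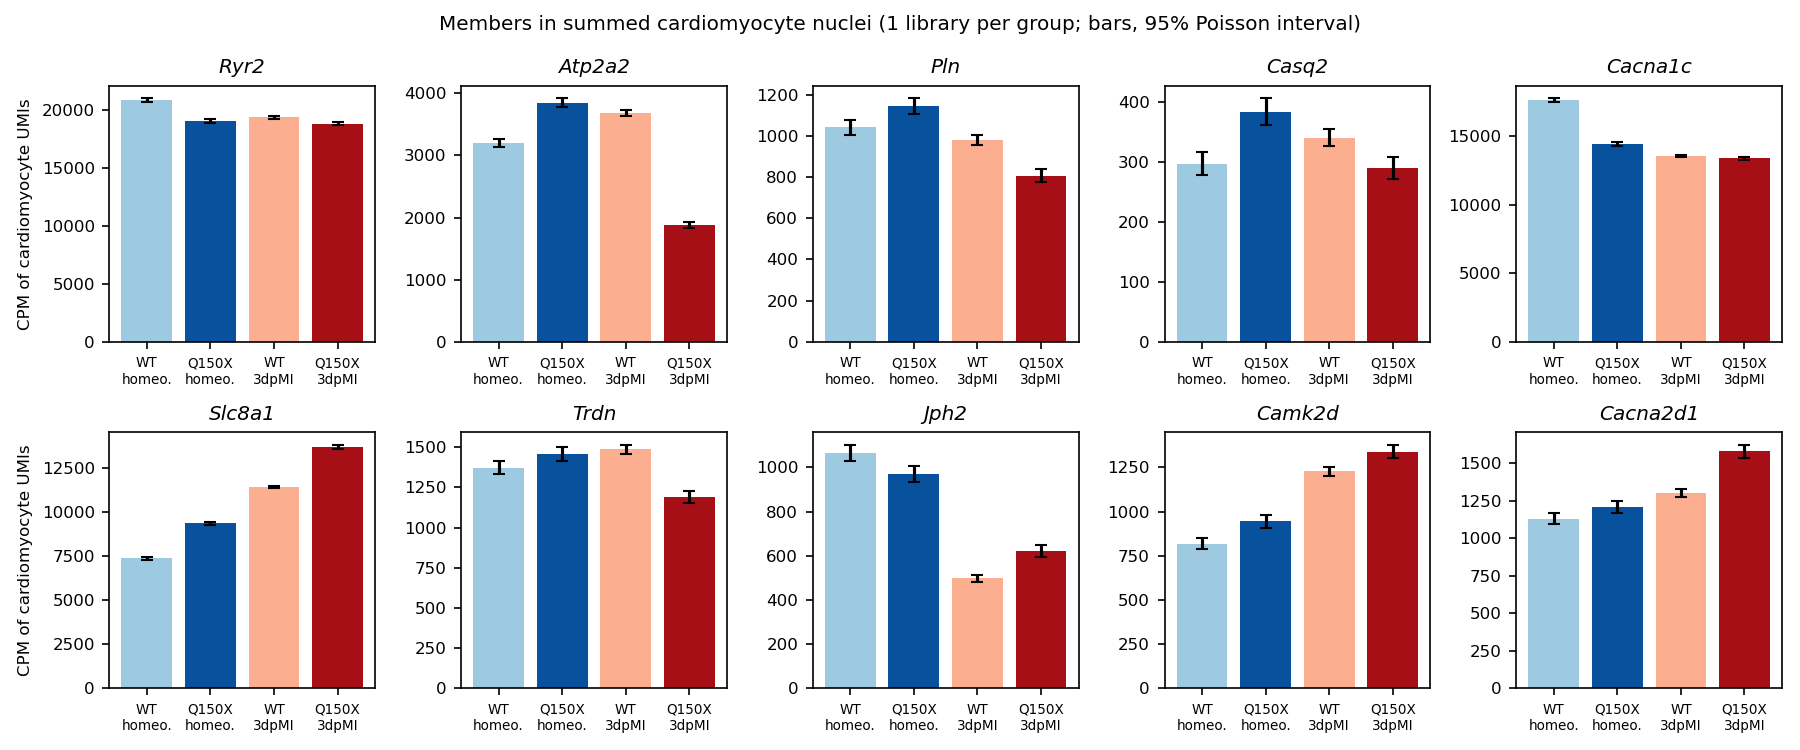
Level of each calcium cycling member in summed cardiomyocyte nuclei, as CPM on the vertical axis of each panel, in the 4 libraries. Bars are single libraries and error bars the 95% Poisson interval; Atp2a2 is at 1876 CPM in Q150X 3dpMI against 3201 to 3851 CPM in the other 3 libraries, and Jph2 is at 498 and 621 CPM at 3dpMI against 1066 and 970 CPM at homeostasis.

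Without infarction, the Q150X library held slightly more Casq2, Slc8a1 and Atp2a2 and less Cacna1c than the WT library. The ratio of Q150X over WT was 1.29 for Casq2 (interval 1.18 to 1.41), 1.27 for Slc8a1 (upper bound 1.29), 1.20 for Atp2a2 (1.17 to 1.24) and 0.819 for Cacna1c (0.809 to 0.830). Camk2d, Pln, Cacna2d1 and Trdn lay between 1.06 and 1.15, and Ryr2 and Jph2 at 0.914 and 0.909. None of the 10 members reached a 1.5-fold difference, where 11.9% of the 7474 genes with at least 50 UMIs were higher and 2.07% lower by 1.5-fold or more. The median log2 ratio of the members was 0.12, and that of all genes 0.17. Relative to that median, Pln (0.978), Trdn (0.944) and Cacna2d1 (0.953) were below 1, and no other member changed side.

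At 3dpMI the Q150X library held 1.96-fold less Atp2a2 in cardiomyocytes than the WT library, a ratio of 0.509 (0.496 to 0.524). Of 10209 genes, 2.91% had a lower ratio. Trdn (0.801, interval 0.772 to 0.831), Pln (0.823, 0.787 to 0.860) and Casq2 (0.850, 0.789 to 0.916), were also lower in Q150X. Jph2 (log2 ratio 0.32, ratio interval 1.18 to 1.32), Cacna2d1 (1.21, 1.17 to 1.26), Slc8a1 (1.20, 1.19 to 1.21) and Camk2d (1.09) were higher. Ryr2 and Cacna1c, at 0.973 and 0.986, were nearly level. Atp2a2 was the only member past 1.5-fold, 1 of 10 against a background of 8.40% of all genes lower and 11.9% higher, so the count is close to the background. The median log2 ratio was -0.03 over the members and 0.06 over all genes. Fibroblast and macrophage markers, higher in the Q150X nuclei as given above, moved with this comparison, and their part in it was not tested.

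In WT cardiomyocytes, infarction went with less Jph2 and more Slc8a1 and Camk2d. Jph2 had a ratio of 3dpMI over homeostasis of 0.467 (0.446 to 0.489), and 1.65% of 9787 genes had a lower one. Slc8a1 had 1.55 (1.53 to 1.57) and Camk2d a log2 ratio of 0.58 (ratio interval 1.44 to 1.57), just under the 1.5-fold threshold before rounding. Cacna1c was lower (0.770, 0.762 to 0.778), and the other 6 lay between 0.928 and 1.15. By 1.5-fold, 1 member was higher and 1 lower, against 35.9% and 4.89% of all genes, and the median log2 ratio was 0.16 over the members and 0.38 over all genes. Relative to the latter, Jph2 was at -1.48, Slc8a1 at 0.25 and Camk2d at 0.21 on the log2 scale, and the ratios of Atp2a2 (0.886), Casq2 (0.882), Trdn (0.834) and Cacna2d1 (0.886) went from above to below 1. Past 1.5-fold relative to it were 0 members higher and 2 lower (Jph2 and Cacna1c). The share of all genes past 1.5-fold relative to it was not computed, so these counts have no background.

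In Q150X cardiomyocytes, infarction went with less Atp2a2, Jph2 and Pln. Atp2a2 had a ratio of 0.487 (0.472 to 0.502), Jph2 0.640 (0.605 to 0.678), Pln 0.705 (0.670 to 0.742), Casq2 0.756 (0.693 to 0.824) and Trdn 0.818 (0.784 to 0.854). Slc8a1 (1.46, 1.44 to 1.49), Camk2d (1.42, 1.35 to 1.49) and Cacna2d1 (1.31, upper bound 1.36) were higher, Cacna1c was at 0.926 and Ryr2 at 0.988. By 1.5-fold, 0 members were higher and 2 lower, against 28.6% and 11.2% of 8383 genes, and the median log2 ratio was -0.20 over the members and 0.20 over all genes. Relative to the latter, Atp2a2 was at -1.23, Jph2 at -0.84 and Slc8a1 at 0.35 on the log2 scale, no member changed side, and 0 members were higher and 4 lower by 1.5-fold. Here too the share of all genes on that scale was not computed, so these counts have no background. Within the largest cardiomyocyte cluster alone (cluster 5 below, 79 nuclei at 3dpMI and 540 at homeostasis), the Atp2a2 ratio was 0.974 (0.928 to 1.02), that of Pln 1.23 (1.14 to 1.33) and that of Trdn 1.09 (1.01 to 1.17), so the lower levels of these 3 genes in the sums were not seen there. Cacna2d1 was at 0.866 (0.790 to 0.947) there, on the other side of 1 from the sums. Jph2 was lower there too (0.522). The members were not kept out of the clustering, so which nuclei fell in cluster 5 can depend on their counts. How far this moved the ratios within it was not tested. The infarction comparison in Q150X shares the Q150X 3dpMI library with the genotype comparison at 3dpMI.

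The infarction ratio in Q150X divided by that in WT was 0.423 for Atp2a2 (0.408 to 0.440), whose ratio was 1.15 in WT (0.886 relative to the median of all genes) and below 1 in Q150X. It was 0.660 for Casq2, 0.749 for Pln and 0.756 for Trdn, and above 1 for Jph2 (1.37) and Cacna1c (1.20). Slc8a1 and Camk2d had infarction ratios above 1 in both genotypes, with 1.55 and 1.46 for Slc8a1 and log2 ratios of 0.58 and 0.50 for Camk2d. No interaction test was possible with 1 library per group.

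**Figure D2:**
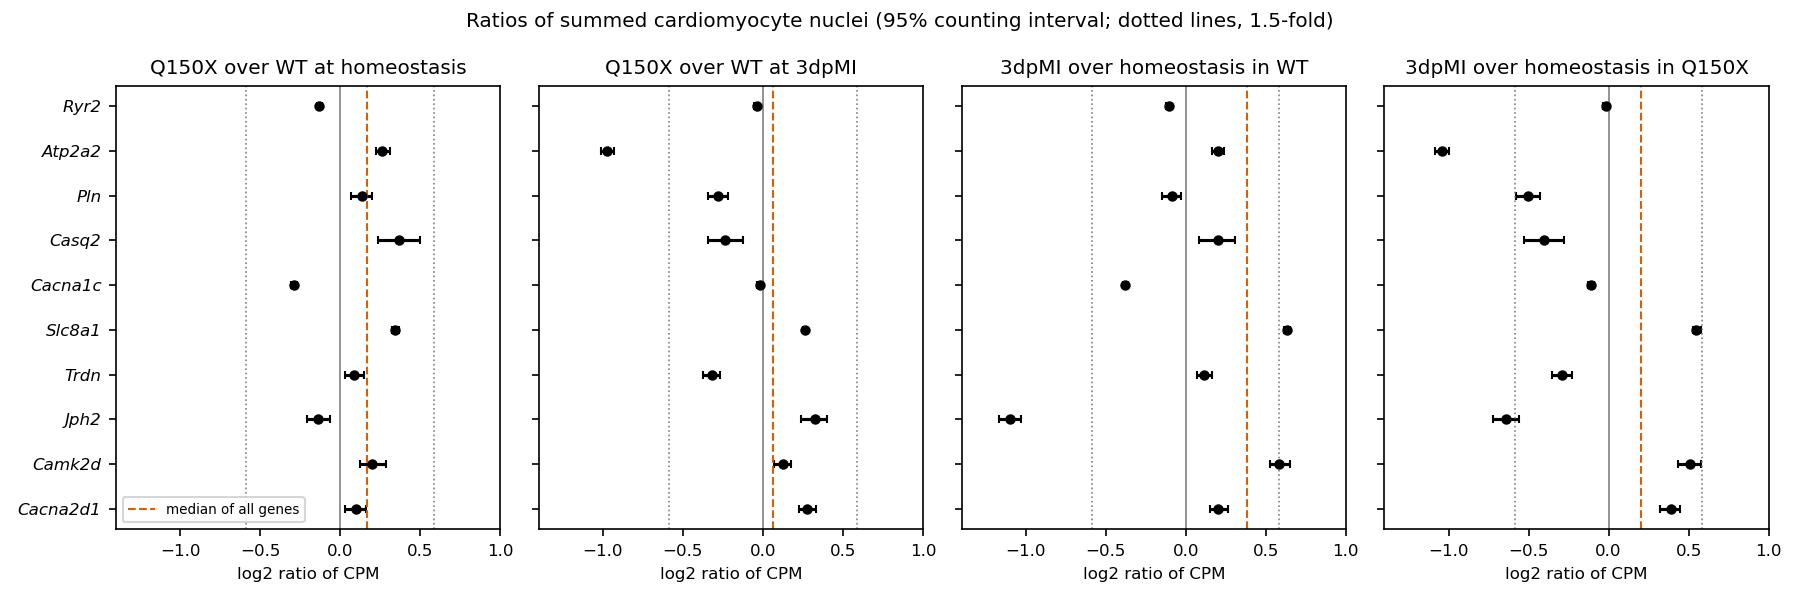
Log2 ratio of CPM for each member in the 4 comparisons of summed cardiomyocyte nuclei, with 95% counting intervals. Dotted lines mark 1.5-fold and the dashed line the median of all genes, which was 0.17, 0.06, 0.38 and 0.20; Atp2a2 lies at -0.97 between genotypes at 3dpMI and Jph2 at -1.10 with infarction in WT.

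Cardiomyocyte nuclei fell into 3 clusters, whose shares are given as the composition of the sums. Cluster 10, led by Xirp2, Ankrd1 and Nppb, genes of stressed myocardium, held 1.92%, 2.86%, 42.4% and 79.0% of cardiomyocyte nuclei in library order. Cluster 5, led by Mylk4, held 29.6%, 64.4%, 51.8% and 18.7%, and cluster 7, led by Gm17428 with Ppargc1a, the remaining 68.5%, 32.7%, 5.76% and 2.36%. The nuclei were clustered on the same counts, with the members not kept out. Differences of members between clusters, and their ratios within a cluster, are therefore a description.

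Within the clusters the genotype ratio of Atp2a2 at 3dpMI was closer to 1 than in the sums. It was 0.824 (0.787 to 0.862) in cluster 5, with 4576 CPM in 593 WT nuclei and 3769 CPM in 79 Q150X nuclei. In cluster 10 it was 0.593 (0.571 to 0.616), with 2527 CPM in 486 WT nuclei and 1499 CPM in 334 Q150X nuclei. So Atp2a2 was lower in Q150X within both clusters, and past 1.5-fold in cluster 10 but not in cluster 5. Within a library, cluster 10 was below cluster 5, with a ratio of 0.552 (0.538 to 0.567) in WT 3dpMI. In Q150X 3dpMI that ratio was 0.398. The share of cluster 10 moves with the sums, and how much of the summed difference it carries was not tested.

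Pln changed direction with the cluster. Its log2 genotype ratio at 3dpMI was 0.32 (ratio interval 1.15 to 1.34) in cluster 5, where Q150X stood at 1467 CPM against 1178 CPM in WT. In cluster 10 it was 0.925 (0.870 to 0.982). Cluster 10 held less Pln than cluster 5 in WT 3dpMI (ratio 0.621) and in Q150X 3dpMI (0.461). Trdn was 0.979 in cluster 5 and 0.874 (0.834 to 0.916) in cluster 10, and Casq2 0.894 and 0.843 (0.769 to 0.924). The interval in cluster 5 included 1 for both genes.

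Jph2 was lower at 3dpMI in each cluster that could be compared. In cluster 5 the WT ratio of 3dpMI over homeostasis was 0.487 (0.455 to 0.521) and the Q150X ratio 0.522 (0.459 to 0.593), from 985 to 480 CPM and from 946 to 494 CPM. In cluster 7 it was 0.365 (0.282 to 0.465) in WT. Its higher level in Q150X at 3dpMI was seen in cluster 10 (1.24, 1.16 to 1.32), while cluster 5 gave 1.03 (0.903 to 1.17). Slc8a1 was higher in Q150X in each of these clusters, at 1.20 in cluster 5 and 1.10 in cluster 10 at 3dpMI, and at 1.18 and 1.33 in clusters 5 and 7 at homeostasis. Cacna2d1, higher in Q150X in the 3dpMI sums, was at 0.862 (0.790 to 0.939) in cluster 5 and 1.21 (1.16 to 1.26) in cluster 10. Camk2d, at 1.09 in the same sums, was at 0.921 (0.844 to 1.01) in cluster 5 and 1.03 (0.987 to 1.08) in cluster 10, and both intervals include 1.

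**Figure D3:**
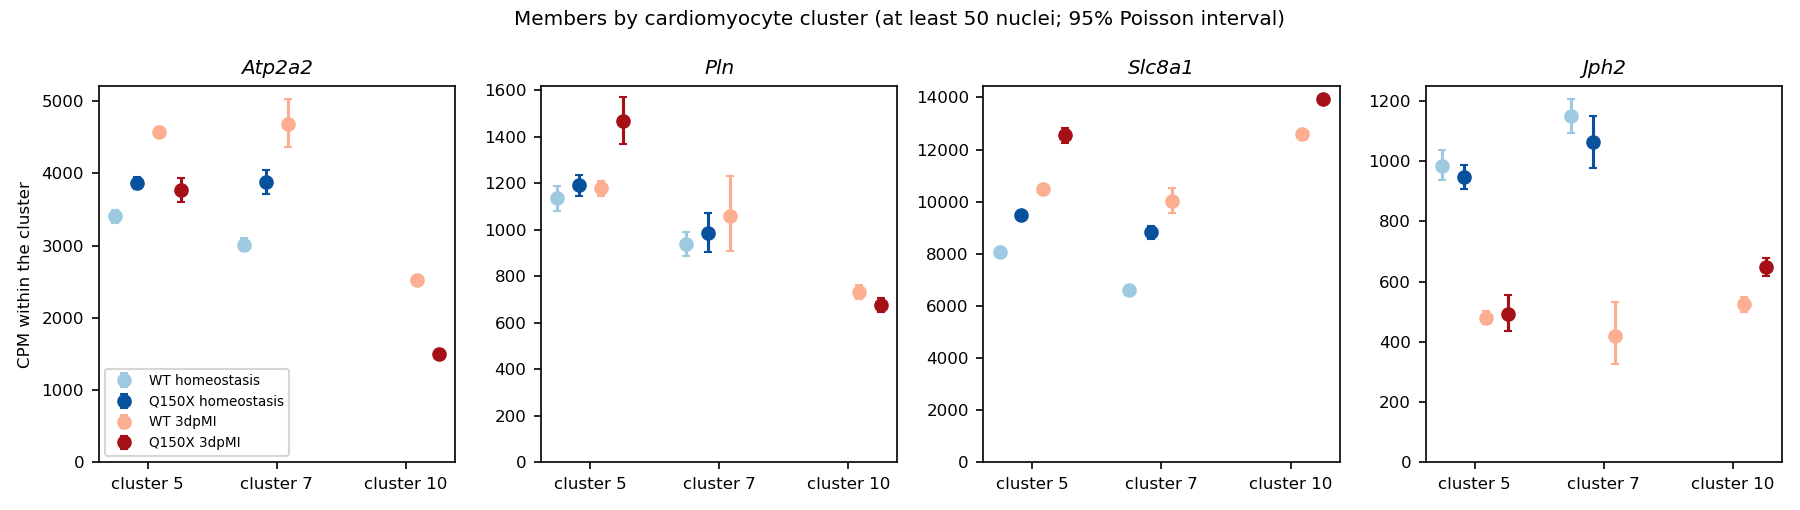
CPM of Atp2a2, Pln, Slc8a1 and Jph2 on the vertical axis within cardiomyocyte clusters 5, 7 and 10, coloured by library, with 95% Poisson intervals and at least 50 nuclei a point. Atp2a2 is lower in cluster 10 (2527 and 1499 CPM) than in cluster 5 (4576 and 3769 CPM) at 3dpMI, while Jph2 at 3dpMI lies under its homeostasis levels in clusters 5 and 7.

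Spread between nuclei was read after thinning each nucleus to 1000 UMIs, which left out 424, 36, 66 and 27 shallower nuclei in library order. Atp2a2 had at least 1 UMI in 92.2%, 95.3%, 92.3% and 73.7% of nuclei (unthinned 92.5%, 98.4%, 97.6% and 96.2%), with medians of 3, 4, 3 and 2 UMIs. In Q150X 3dpMI the lower quartile was 0 and the highest nucleus held 19 UMIs, against 2 and 27 UMIs in WT 3dpMI. The variance over mean of Atp2a2, which is 1 for pure counting, was 1.28, 1.36, 2.20 and 3.08. That of Ryr2 was 2.85, 3.22, 4.92 and 6.01, although its mean was nearly level at 20.9, 18.8, 18.8 and 18.3 UMIs. Slc8a1 had medians of 7, 8, 10 and 12 UMIs and a variance over mean of 2.23, 3.03, 4.54 and 4.72. Its lower quartiles were 4, 6, 6 and 7 UMIs, while the 10th percentile was 3 UMIs in each library. When the calcium genes were left out of the clustering, that percentile was 3, 3, 4 and 4 UMIs. The variance over mean of Cacna1c went from 2.75 and 2.57 to 4.03 and 4.34. Variance over mean was higher at 3dpMI than at homeostasis for 10 of 10 members in WT and 7 of 10 in Q150X, the exceptions being Trdn, Jph2 and Camk2d. The share of all genes with a higher value at 3dpMI was not computed, so these counts have no background. Some of the rises were very small, as for Casq2 in WT (1.03, then 1.05). Thinned to 500 UMIs, variance over mean was not higher at 3dpMI in WT for Jph2 (1.14, then 1.11) and Casq2 (1.02 in both). In Q150X at that depth it was lower for Trdn (1.34, then 1.26) and Jph2 (1.17, then 1.16), and Camk2d went from 1.12 to 1.13.

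The infarction libraries also held shallow nuclei with fibroblast markers. When the calcium genes were left out of the clustering, 126 WT and 60 Q150X 3dpMI nuclei left the cardiomyocyte class, with medians of 1056 and 1122 UMIs and fibroblast markers at 3779 and 4993 CPM, against 427 and 607 CPM in the rest. They held 2.35% and 2.27% of the cardiomyocyte UMIs. Without them the variance over mean was 1.95 and 2.17 for Atp2a2 and 3.95 and 4.86 for Ryr2 in WT and Q150X 3dpMI, and Atp2a2 had a UMI in 72.9% of Q150X nuclei. The highest nucleus of that set, thinned anew, held 22 Atp2a2 UMIs in WT 3dpMI and 11 in Q150X 3dpMI.

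Within the infarcted WT library, Atp2a2 and Pln were lower and Slc8a1 higher in nuclei with more stress-gene UMIs (Ankrd1, Nppa, Nppb, Xirp2, Acta1, Actn1, Myh7, Des, Flnc and Hspb1, summed after thinning). Nuclei with 3 or more such UMIs made up 11.0%, 12.1%, 37.0% and 62.9% of thinned nuclei in library order. In WT 3dpMI the level with 3 or more over that with 0 was 0.708 for Atp2a2 (0.652 to 0.769), 0.683 for Pln (0.582 to 0.803) and 1.20 for Slc8a1 (1.14 to 1.26). At homeostasis these ratios were 0.920 and 1.03 for Atp2a2, 0.824 and 1.15 for Pln, and 1.09 and 0.950 for Slc8a1 in WT and Q150X. In Q150X 3dpMI only 37 nuclei had no stress UMI, under the 50 set for a ratio. Atp2a2 stood there at 3514, 2536 and 2241 CPM with 0, 1 to 2 and 3 or more stress UMIs, against 4485, 4270 and 3175 CPM in WT 3dpMI, so it was lower in Q150X at each range. In the nuclei clustered without the calcium genes the Q150X levels were 3625, 2848 and 1473 CPM and the WT levels 4540, 4343 and 3079 CPM, so the highest stress range of Q150X depends on which nuclei are kept. Jph2 stood at 432, 382 and 679 CPM in Q150X 3dpMI and at 443, 521 and 551 CPM in WT 3dpMI, below the homeostasis levels of 977 CPM or more at every range. The Q150X level without stress UMIs rests on 16 UMIs, and was 275 CPM (11 UMIs) in the nuclei clustered without the calcium genes. The ranges are parts of a continuous score, not cell types.

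**Figure D4:**
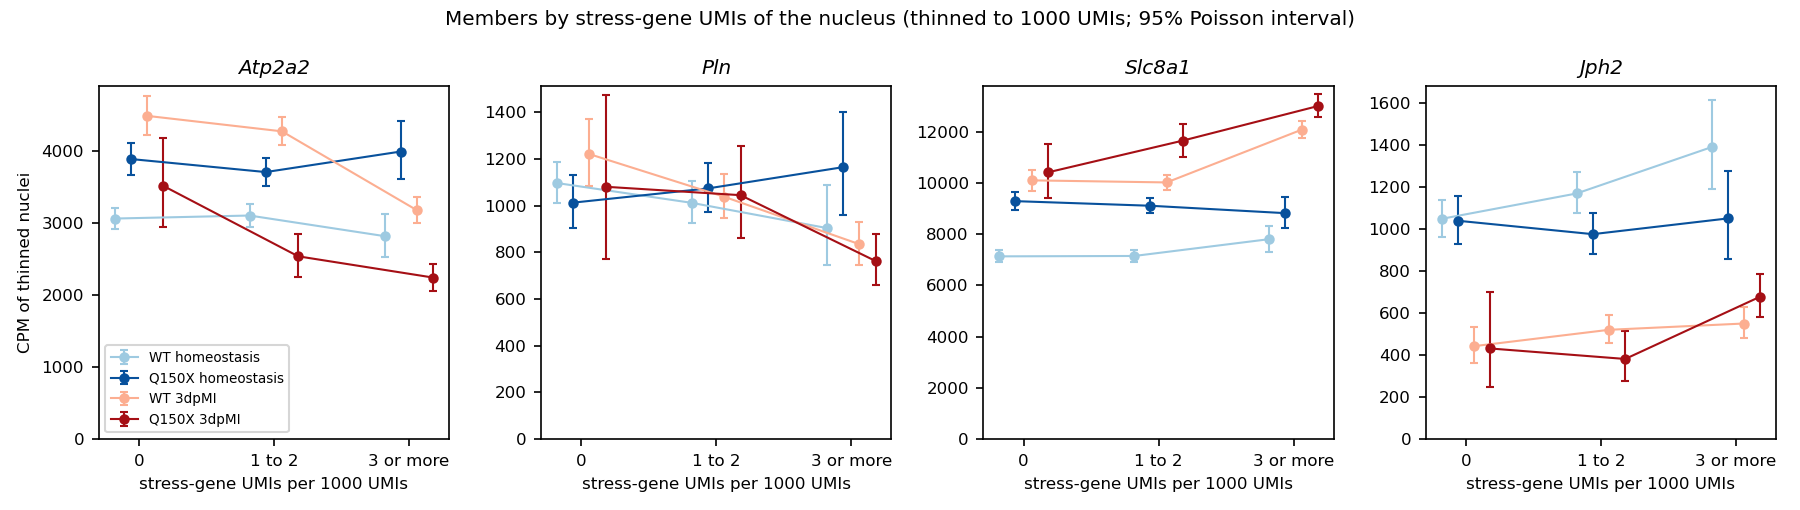
CPM of Atp2a2, Pln, Slc8a1 and Jph2 on the vertical axis in nuclei thinned to 1000 UMIs and split on the horizontal axis by their stress-gene UMIs, coloured by library, with 95% Poisson intervals. Atp2a2 goes from 4485 to 3175 CPM in WT 3dpMI and from 3514 to 2241 CPM in Q150X 3dpMI.

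Across nuclei of a library, members were at most weakly related. Over thinned counts the largest Spearman correlations between members were in Q150X 3dpMI (396 nuclei), at 0.35 for Ryr2 with Slc8a1, 0.31 for Ryr2 with Cacna1c and 0.26 for Atp2a2 with Pln. Atp2a2 against the stress sum gave -0.26 in both WT 3dpMI and Q150X 3dpMI, and -0.28 and -0.46 in the nuclei clustered without the calcium genes. All of these come from nuclei of 1 library with sparse counts and a fixed total, and no member pair reached 0.20 in the homeostasis libraries.

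Outside cardiomyocytes, each level was set beside the CPM that free cardiomyocyte RNA would bring, estimated from the cardiomyocyte markers in the same class. In cardiomyocytes, Ttn alone gave 45780 of the 70380 marker CPM in WT homeostasis and 27734 of 51428 in Q150X 3dpMI. The estimate therefore leans on that gene, and whether it fits each member equally well was not tested. Ryr2 and Trdn were under this estimate in each class shown: in vascular endothelial nuclei Ryr2 stood at 0.215 to 0.472 times the estimate over the 4 libraries. Pln was near it, at 0.669 to 0.960 times in fibroblasts. These levels are read as background. Camk2d, an enzyme of many cell types, was above the estimate in each class, by the median over libraries. In macrophages or monocytes at 3dpMI it stood at 871 CPM in WT and 959 in Q150X, 16.3 and 41.5 times the estimate, with a UMI in 72.3% and 80.1% of nuclei. The same class held Slc8a1 at 2513 and 2499 CPM, 5.06 and 10.6 times the estimate, with a UMI in 87.9% and 90.3% of nuclei. In vascular endothelial nuclei of the same libraries Slc8a1 stood at 285 and 198 CPM, under the estimate, with a UMI in 32.4% and 28.5% of nuclei. The median depths were 1243 and 1939 UMIs in that class and 2342 and 2469 UMIs in macrophages or monocytes.

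Mural cells carried part of the entry machinery. Pericytes held Cacna1c at 3092, 2873, 3421 and 3137 CPM in library order, between 2.22 and 8.05 times the free-RNA estimate. They held Cacna2d1 at 604, 588, 902 and 1185 CPM, between 5.43 and 25.7 times the estimate, higher in the infarction libraries, and Jph2 at 192 to 249 CPM without the lower infarction level seen in cardiomyocytes. Casq2 in pericytes stood at 110 to 256 CPM, between 6.13 and 13.5 times the estimate. Smooth muscle nuclei, 61 in WT homeostasis and 60 in WT 3dpMI, held Slc8a1 at 4090 and 3546 CPM and Cacna1c at 4662 and 4744 CPM. These were 4.36 and 2.13 times the estimate for Slc8a1 and 2.08 and 2.39 times for Cacna1c. The estimate there was 937 and 1668 CPM for Slc8a1 and 2243 and 1984 CPM for Cacna1c. Fibroblasts held Cacna2d1 at 425 to 584 CPM, Camk2d at 381 to 514 CPM and Slc8a1 at 949 to 1624 CPM. Atp2a2 in fibroblasts, the general pump of the endoplasmic reticulum, stood at 460, 630, 487 and 337 CPM, between 2.43 and 9.99 times the estimate. The estimate was itself lowest in Q150X 3dpMI, at 125, 259, 126 and 33.7 CPM in library order.

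**Figure D5:**
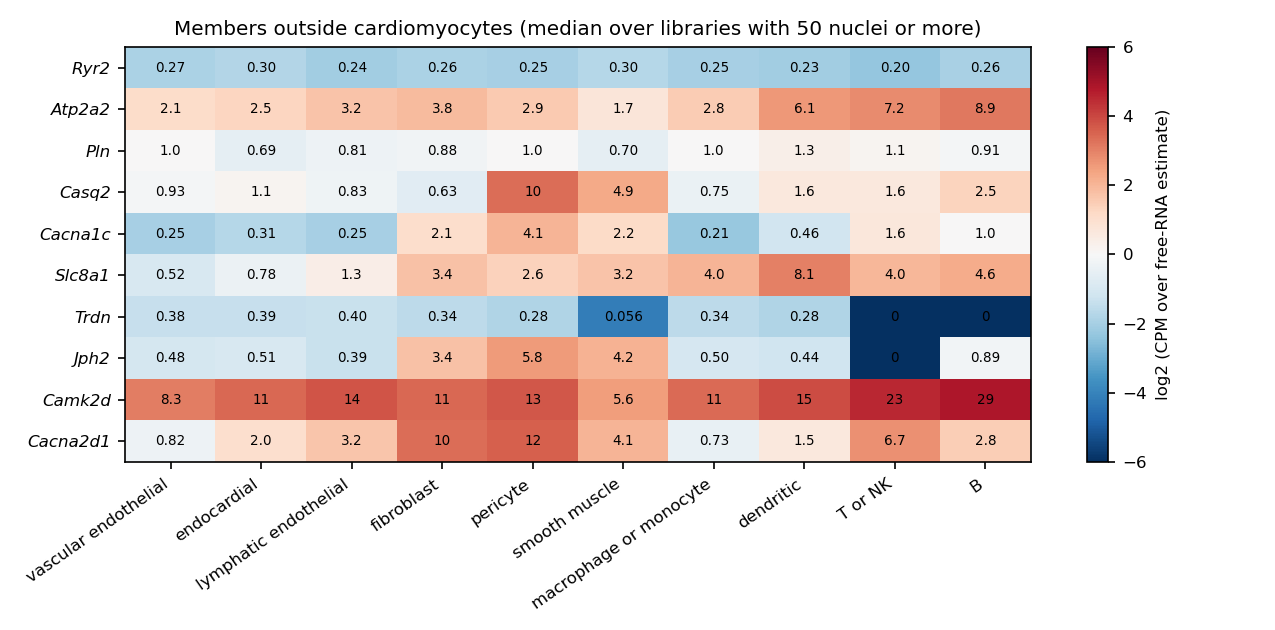
CPM of each member over the free-RNA estimate in nuclei outside the cardiomyocyte class, as the median over libraries with at least 50 nuclei of the class (printed in each cell, coloured on a log2 scale, with 0 drawn at the lowest colour). Camk2d is above the estimate in every class shown and Ryr2 and Trdn below it in every class shown.

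Of 80 other calcium genes listed by role, 56 had at least 50 UMIs in the homeostasis genotype comparison, and 7 of these were higher and 0 lower in Q150X by 1.5-fold or more, beside 11.9% and 2.07% of all genes. The share higher is close to that of all genes. Ryr3, a minor release channel, stood at 17.7 against 4.84 CPM (ratio 3.66, 2.03 to 6.98). Tnnc1, the calcium sensor of the thin filament and also a cardiomyocyte marker, had a ratio of 1.92 (1.65 to 2.23), and Letm1, a mitochondrial exchanger component, 2.14 (1.47 to 3.18). The median log2 ratio of the list was 0.15, beside 0.17 for all genes.

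At 3dpMI, 60 other calcium genes were measured, 5 higher and 4 lower in Q150X, beside 11.9% and 8.40% of all genes, so neither share is above that of all genes. Sri, which encodes sorcin, was higher (66.3 against 25.3 CPM, ratio 2.62, 2.15 to 3.19), and Hrc, a calcium-binding protein of the store, lower (19.7 against 37.7 CPM, 0.524, 0.394 to 0.686). Rcan1, an inhibitor of calcineurin, had a ratio of 1.80 (1.65 to 1.97). Ank2, which encodes an anchor of the exchanger and pumps, stood at 1625 against 2485 CPM (0.654, 0.634 to 0.674). The median log2 ratio was 0.07, beside 0.06 for all genes.

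With infarction, 18 of 58 other calcium genes were higher and 2 lower in WT, and 19 of 57 higher and 8 lower in Q150X. Rrad, a brake on the L-type channel, was at 3.82 (2.98 to 4.99) in WT and 4.79 (3.75 to 6.18) in Q150X. Tcap, a Z-disc protein, was at 3.48 and 2.09. Calr, a calcium-binding chaperone, was at 5.99 in WT (3.89 to 9.70), and Pde3a, which degrades cyclic AMP, at 0.635. Pde4b, which also degrades cyclic AMP, was at 0.482 (0.464 to 0.501) in Q150X, from 2446 to 1179 CPM. Shares of 18 of 58 and 19 of 57 higher stand beside the 35.9% and 28.6% of all genes given above, and medians of 0.21 and 0.15 beside 0.38 and 0.20. The lower counts, 2 of 58 in WT and 8 of 57 in Q150X, stand beside 4.89% and 11.2% of all genes.

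Over 33 sums of a class in a library, genes whose level followed the summed members most closely, among 6971 genes, included ENSMUSG00000121207 (Pearson correlation 0.933), Grb14 (0.929), Speg (0.918) and Lgr6 (0.902), on log2(CPM + 10). The sums share libraries, and each of the 4 cardiomyocyte sums stands far from the other classes.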

How the data were processed

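Nuclei from mouse heart were sequenced with the 10x Chromium 5' kit, version 2, per the labels' protocols. The values deposited by the authors are UMI counts without normalisation, from Cell Ranger 7.1.0 per the file headers, and the submitters' processing notes name GRCm39 and Scanpy. The deposited gene symbols and barcodes were used as given. Each deposited barcode already had at least 500 UMIs; the libraries held 4390, 6544, 9157 and 8125 barcodes with 5875965, 9283645, 30413471 and 32657625 UMIs (homeostasis WT and Q150X, then 3dpMI WT and Q150X). Gene coordinates are not given, because the reference is of another build; promoters are printed in GRCm38.p6.

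Nuclei with under 300 genes or over 10% mitochondrial UMIs were removed, then doublets by Scrublet in Scanpy 1.11.5 (208, 336, 993 and 723 nuclei; in Q150X homeostasis the automatic threshold marked 0.0154%, so nuclei were removed from the top score down, 0.8% per 1000 nuclei). Libraries were clustered together (2000 variable genes, 30 components, 15 neighbours, Leiden resolution 1, leidenalg 0.10.2), and named by markers of 17 classes, none of them a member. Clusters 13 and 18 stayed unnamed, since genes of another class led them; for cluster 18 this was decided after seeing its genes. UMIs were summed per class and library and scaled to the class total (CPM), with exact Poisson, Clopper-Pearson and conditional binomial intervals at 95%. Ratios and their intervals were run on counts simulated with counting error only. That check cannot speak to spread between nuclei or hearts. All 10 members are named, and in each role of the other calcium genes the highest and lowest ratio were candidates for naming. The members, lists and marker sets were chosen with earlier results of these data known. Alternatives added after seeing the data were the spread and stress ranges in nuclei clustered without calcium genes, and ratios within clusters 5 and 10. Among the genes most like the summed members, 1 is not reported here.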

Additional observations from a re-analysis of the deposited data

Results flagged for a closer look

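Infarction ratios lay on opposite sides of 1 in WT and Q150X for 3 members, with counting intervals that leave out 1 in both genotypes. Atp2a2 had a Q150X ratio over the WT ratio of 0.423, Casq2 of 0.660 and Trdn of 0.756. Genotype ratios lay on opposite sides of 1 at homeostasis and 3dpMI for these 3 members and for Pln (0.749) and Jph2 (1.37). Each rests on 1 library per group, so the difference was not tested, and relative to the median of all genes the WT infarction ratios of Atp2a2 (0.886), Casq2 (0.882) and Trdn (0.834) are below 1, on the same side as in Q150X. Likewise the homeostasis genotype ratios of Pln (0.978) and Trdn (0.944) are then below 1, on the same side as at 3dpMI. The counting interval of every member left out 1 in each comparison, so that condition set no member apart. The share of all genes on opposite sides of 1 was not computed, so the counts of members have no background.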

How the results depend on the processing

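Leaving out a replicate was not possible, since each group has 1 library, and No paired analysis was possible because no result comes from a test. The 11 alternatives gave 40 member ratios each. None lay on the other side of 1 with a mitochondrial limit of 5%, no doublet removal, Leiden resolution 2, separate clustering, clustering without calcium genes or thinning to 1000 UMIs. On the other side of 1 lay 1 ratio (Ryr2 in Q150X, 1.03) with at least 1000 UMIs, 1 without the 20 leading genes, 1 with equal weights, 7 relative to the median of all genes and 11 in the largest cluster alone, which has 79 Q150X 3dpMI nuclei. Atp2a2 between genotypes at 3dpMI ranged from 0.487 to 0.824, the highest in that cluster; with infarction in Q150X it ranged from 0.425 to 0.974. Jph2 with infarction ranged from 0.360 to 0.491 in WT and from 0.522 to 0.655 in Q150X.

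The member median at homeostasis, 0.12, was -0.05 relative to all genes, 0.04 without the leading genes, 0.21 with equal weights and 0.04 thinned. At 3dpMI, -0.03 became -0.10, -0.05 (equal weights and thinned) and 0.00 (largest cluster). With infarction in WT, 0.16 became -0.22 relative to all genes and 0.02 without the leading genes. In Q150X, -0.20 became -0.14 with at least 1000 UMIs, -0.40 relative to all genes, -0.26 without the leading genes and 0.08 in the largest cluster. The cause was not tested.

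Members past 1.5-fold numbered as follows, beside counts at a lower fold (25% difference) and at 2-fold. At homeostasis 0 higher became 2 with a lower fold. At 3dpMI 1 lower became 0 in the largest cluster and with a fold of 2. With infarction in WT, 1 higher became 2 with at least 1000 UMIs, the 5% limit, resolution 2, separate clustering, no calcium genes, equal weights and a lower fold, where Camk2d, close to the threshold, passed it, and 0 relative to all genes, without the leading genes, in the largest cluster and with a fold of 2, where Slc8a1 (1.55) no longer passed (1.19, 1.41 and 1.30 in the first 3). There 1 lower became 2 relative to all genes and with a lower fold. In Q150X, 0 higher became 1 with at least 1000 UMIs and 3 with a lower fold, and 2 lower became 4 relative to all genes and with a lower fold, and 1 in the largest cluster and with a fold of 2.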
